A study of Mus musculus with 5 samples.

Results

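The RAS–RAF–MEK–ERK cascade was described at the RNA level through 7 genes, Hras and Nras (RAS), Araf and Braf (RAF), Map2k1 and Map2k2 (MEK1 and MEK2) and Mapk3 (ERK1). The members were given by symbol and were found through their NCBI gene numbers. All 7 were listed in every library, among 17923 genes listed in at least 1 library, and all 7 passed the filter on low counts. The other paralogs of these tiers were not used here. All cells came from tumors of the mouse thyroid and carried BrafV600E, so that mutant BRAF was shared by both groups. Ctnnb1, which encodes β-catenin, was normal in the BVE-Ctnnb1wt group (2 libraries) and labelled as deleted in the BVE-Ctnnb1null group (3 libraries). The promoter that drove the mutant allele or the deletion, the sex and age of the donor mice and the clonality of the lines were not given in the sources used here. The pair of wt libraries shared a line name (BVE) and passage 20, and only replicate 2 was labelled as given thyroid-stimulating hormone (TSH). The null libraries had 3 line names, BVECTN_4 at passage 8 and labelled no TSH (replicate 1), BVECTN_4A at passage 11 (replicate 2) and BVECTN_5 at passage 7 (replicate 3), and how the first 2 of these lines are related was not stated. For replicates 2 and 3 the labels gave no TSH status. The growth protocol instead described medium with 4 mU/mL bovine TSH and about 25 wt and 20 null passages. Genotype therefore cannot be told apart from line or passage. The study speaks of biological replicates, but in a number that the pair of wt libraries does not match, and the labels do not say that this pair came from separate cultures. The p values rest on the spread within the wt pair, which may be technical, and on the spread between null libraries of 3 line names. With a single wt line, they do not measure how wt lines vary.

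In this cascade, GTP-bound RAS recruits RAF kinases to the membrane, RAF phosphorylates MEK, MEK phosphorylates ERK, and ERK acts on cytoplasmic and nuclear substrates. The BRAF V600E change makes the kinase active without RAS and is the most common driver of papillary thyroid cancer. Signal through the cascade is set mostly by phosphorylation, which RNA levels do not measure.

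The sequences before the start sites are shown because the wt libraries differed by label in TSH, which acts through cAMP. A further reason is that the members of the RAF tier differed widely in level, as did those of the MEK tier in wt replicates 1 and 2 and null replicate 1. The RefSeq promoter table (GRCm38.p6) held 6 of the 7 members, all but Mapk3. In the 250 bases before the Braf start site (chr6:39725464-39725713, minus strand), capitals mark the palindromic cAMP response element TGACGTCA, which reads the same on both strands. For Map2k1 (chr9:64253606-64253855, minus strand) and Map2k2 (chr10:81105665-81105914, plus strand), capitals mark the GC box GGGCGG on either strand.
Braf: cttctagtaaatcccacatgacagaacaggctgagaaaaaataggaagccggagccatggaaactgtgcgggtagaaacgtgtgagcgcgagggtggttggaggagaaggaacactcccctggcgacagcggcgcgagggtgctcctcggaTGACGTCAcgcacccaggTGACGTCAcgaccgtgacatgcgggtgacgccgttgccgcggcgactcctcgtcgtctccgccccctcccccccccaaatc
Map2k1: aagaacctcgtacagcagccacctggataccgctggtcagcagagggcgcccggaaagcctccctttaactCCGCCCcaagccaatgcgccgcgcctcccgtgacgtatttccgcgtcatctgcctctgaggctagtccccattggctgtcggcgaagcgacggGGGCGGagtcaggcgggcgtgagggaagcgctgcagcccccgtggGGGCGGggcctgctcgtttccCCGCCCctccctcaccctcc
Map2k2: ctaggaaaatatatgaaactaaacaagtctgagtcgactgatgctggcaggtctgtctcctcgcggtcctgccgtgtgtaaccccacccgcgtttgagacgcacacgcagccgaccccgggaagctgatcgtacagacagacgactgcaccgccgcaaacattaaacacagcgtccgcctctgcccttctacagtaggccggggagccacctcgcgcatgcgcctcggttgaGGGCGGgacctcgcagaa
Braf held 2 copies of TGACGTCA, starting 99 and 81 bases before the start site, and the other 5 members held 0. Of 32851 windows of this length, 1.55% held at least 1 copy and 10 windows held 2 or more. The Map2k1 window held 4 GC boxes, Hras 3, Nras 2, Map2k2 and Braf 1 each and Araf 0. Of all windows, 32.7% held at least 1 GC box on either strand and 16.7% held 2 or more. The TCF/LEF motif CTTTGAT was found in 0 of the 6 windows on either strand, against 3.21% of all windows. The ETS core CCGGAA was present once each in Araf, Hras and Map2k1, against 12% of all windows. The GC boxes of Nras share 1 base, and no other matches in these 6 windows overlap. A match is a description of the letters, not of binding. The motifs were chosen with earlier results of these data or with the sequences known. The shares of all windows therefore do not test whether a match was to be foreseen.

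The deposited values were estimated counts and FPKM (fragments scaled to transcript length and to library total) of RefSeq transcripts, and both were summed per gene. Total estimated counts were 30432737 and 30713079 in the wt pair and 29929677, 29360002 and 29415980 in null replicates 1, 2 and 3. At this depth, the limit that a count of 0 allows (3 counts) was 0.10 CPM (counts scaled to the library total). Intervals on counts cover counting error only. Changes are given as log2 fold changes, null minus wt, with their standard error (SE), fitted with edgeR on counts scaled by TMM. The edgeR adjusted p comes from its quasi-likelihood F test with Benjamini-Hochberg adjustment over all 13240 genes tested, and the threshold was 0.05.

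Ctnnb1 itself was examined first as a check of the labels. Its FPKM was 59.29 and 73.75 in the wt pair and 124.58, 196.26 and 117.82 in null replicates 1, 2 and 3. Each null line was above the wt pair in FPKM, but after TMM scaling the groups overlapped, with 344 CPM in null replicate 3 and 356 CPM in wt replicate 2. Ctnnb1 had a fitted log2 fold change of 0.55 (SE 0.44, edgeR adjusted p = 0.517), and 0.18 with an offset for transcript length. Ctnnb1 RNA was thus not shown to be lower in the libraries labelled null. These values cover whole transcripts and do not separate reads inside the deleted part from reads outside it. Directions below are for the libraries labelled null. The lines also differed in cell type markers. Of 10 thyroid follicular markers, 3 and 2 reached an FPKM of 1 in wt replicates 1 and 2, and 4, 3 and 2 in null replicates 1, 2 and 3. Their summed FPKM was 15.25 and 20.61 in the wt pair and 35.06, 68.54 and 4.85 in the null libraries, with Nkx2-1 or Pax8 the most abundant. Among genes of differentiated thyrocytes, Foxe1 and Iyd did not exceed an FPKM of 0.09 in any library, Tg lay between 0.04 and 0.86, and Slc5a5 was 1.03 and 0.36 in the wt pair and 6.48, 0.05 and 0.14 in the null lines. The 8 epithelial markers summed to 1093.76 and 1770.30 in the wt pair and to 13168.58, 705.73 and 1402.34 in the null libraries. Null replicate 1 stood apart as the keratin-rich library, with Krt7 at 5130.95, and in null replicate 2 Epcam and Cdh1 were not listed, which means an FPKM under 0.01. The 10 mesenchymal markers summed to 1767.73, 3660.92, 86.80, 3012.11 and 2814.57 in the same order of libraries, with Vim the most abundant in each. Null replicate 3 alone had Dcn (84.66), Thy1 (88.47) and Postn (101.56) above an FPKM of 1, and 9 of the 10 mesenchymal markers passed this level there. All 8 epithelial markers passed it there too, with Epcam at 59.60 and Cdh1 at 20.92. The leukocyte list was led by Cd68 (1.00 to 59.81), with the other 5 markers below an FPKM of 1, and endothelial markers summed to at most 0.66. In bulk RNA, fewer cells of a type and less RNA per cell cannot be told apart.

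The 7 genes spanned a wide range of levels per length. Mapk3, the ERK1 kinase at the end of the cascade, had the highest FPKM in every library and Braf the lowest. By mean transcript length, Mapk3 was also the shortest of the 7 (1772 bases) and Braf the longest (9728 bases). The part of transcript length in this order of levels was not tested. Mapk3 exceeded between 97.5% and 98.8% of the genes listed in a library, while Braf exceeded between 17.5% and 47.4%. Mapk3 alone made up 55.5% and 64.1% of the summed FPKM of the 7 genes in the wt pair and 63.6%, 51.1% and 51.3% in the null libraries. The RAF genes together made up 3.6% and 2.6% in the wt pair and 3.0%, 4.1% and 7.0% in the null libraries. Map2k2 came next after Mapk3 in every library, but in null replicate 3 it differed little from Map2k1, with FPKM values of 65.35 and 64.36. The places of Hras, Map2k1, Nras and Araf changed between libraries, and their ranges overlapped.

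**Figure D1:**
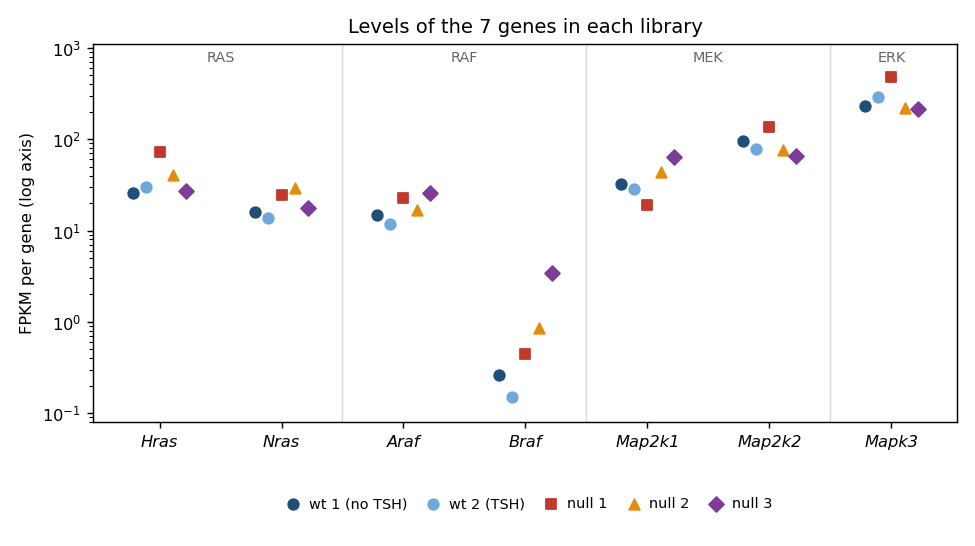
FPKM per gene on a log axis for the 7 genes in the 2 wt (circles) and 3 null libraries (square, triangle and diamond for replicates 1, 2 and 3). Mapk3 lies at the top between 214.46 and 479.88 and Braf at the bottom between 0.15 and 3.46, with null replicate 3 as its highest library.

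Of the 7 members, 0 passed an adjusted p of 0.05, against 0% of all 13240 genes tested, and 0 had an unadjusted p under 0.05, against 18.5% of all genes (edgeR). DESeq2 called 0 of the 7, against 8.41% of all genes higher and 3.68% lower. The limma fits also called 0 members, and on log2(FPKM + 0.1) they called at most 1 gene higher and 5 lower among all genes. With the length offset described below, 0 of the 7 had an unadjusted p under 0.05, against 7.29% of all genes higher and 5.66% lower. The log2 fold change was above 0 for 4 members and below 0 for 3. Their median was 0.06, beside a median of 0.29 over all genes tested. Only Braf, at 2.33, lay above that 0.29, and the other members lay below it, with Hras the nearest at 0.19. This median of all genes depended on the scaling, so only changes relative to it carry a direction. Over the 10661 genes in every fit it was 0.17 after TMM, 0.09 with DESeq2's size factors and 0.75 with library totals. In FPKM, 3 members (Braf, Araf and Nras) had every null library above both wt libraries, against 35.9% of all genes, and 0 had every null library below, against 7.22% (43.1% on either side). After TMM scaling, only Braf was left without overlap, against 22.6% of all genes above and 39.8% on either side.

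Braf encodes the kinase that carries the driver change. The file lists it as a single transcript of 9728 bases, and its counts do not separate mutant from normal Braf RNA. Its estimated count was 80 (95% Poisson interval 63 to 100) and 47 (35 to 63) in wt replicates 1 and 2. It was 132 (110 to 157), 250 (220 to 283) and 1010 (949 to 1074) in null replicates 1, 2 and 3. As unscaled counts, the intervals of the null libraries did not overlap those of the wt libraries or each other. After TMM scaling the lowest null and the highest wt value were close, with 4.07 CPM in null replicate 1 and 3.12 CPM in wt replicate 1. In FPKM, Braf was 0.26 and 0.15 in the wt pair and 0.45, 0.86 and 3.46 in the null libraries, or 0.205 ± 0.0778 (SD, n = 2) and 1.59 ± 1.63 (SD, n = 3). Null replicate 3, the library with Dcn, Thy1 and Postn RNA, was the highest, and the part of those markers in the Braf level was not tested. Among the null lines the highest Braf FPKM was 7.69 times the lowest, where the median of this ratio over all genes tested was 2.89. For Braf the log2 fold change was 2.33 (SE 1.01, edgeR adjusted p = 0.276), which did not pass the threshold. It was 1.05 without null replicate 3 and 0.86 (adjusted p = 0.737) in an edgeR fit with an offset for transcript length.

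Transcript length moved with the groups. Over genes with transcripts under 2000 bases the median log2 fold change was -0.35. It was 0.26 for 2000 to 4000 bases, 0.87 for 4000 to 6000 bases, 1.29 for 6000 to 8000 bases and 1.79 for 508 genes of 8000 bases or more. On log2(FPKM + 0.1), the median difference of these longest genes from the wt mean was 1.50, 2.02 and 1.59 in null replicates 1, 2 and 3, and 0.10 and -0.10 in the wt pair. All 3 null lines thus shared the trend, and the wt libraries, which are a single line, lay within 0.12 of their mean in each length class. Braf was 0.54 above the median of its length class and exceeded 67.7% of its genes. In null replicate 3 alone Braf was 3.57 above the wt mean on that FPKM scale, against 1.59 for its class, while in null replicates 1 and 2 it was 0.87 and 1.68, below their class medians of 1.50 and 2.02. Nras, at 4470 bases, had a log2 fold change of 0.10 and lay 0.77 below the median of its class. Mapk3, at 1772 bases, lay within 0.01 of its class. The part of RNA quality or library preparation in the trend was not tested, and with a single wt line it cannot be told apart from genotype.

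**Figure D2:**
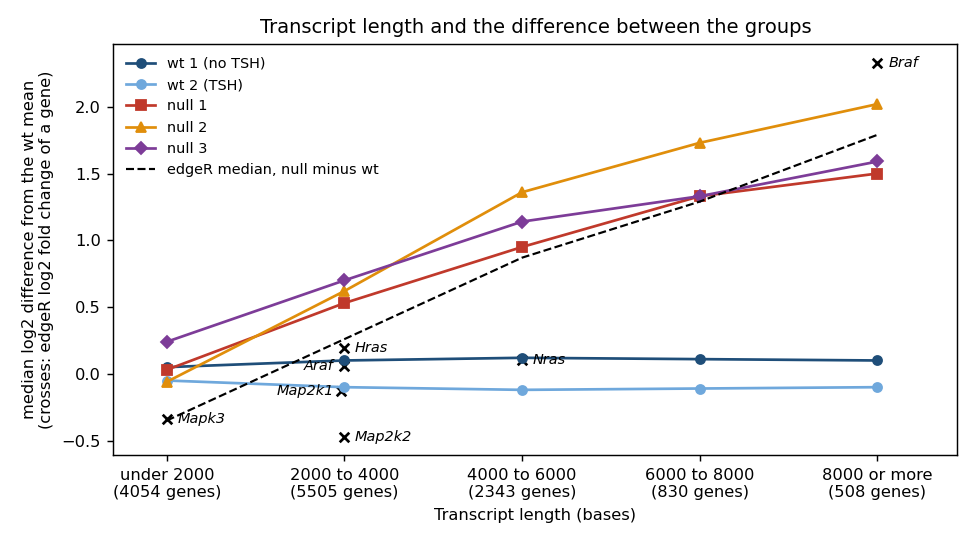
Median difference from the wt mean on log2(FPKM + 0.1) in each library (lines), by transcript length class in bases, with the edgeR median (dashed) and the log2 fold change of each of the 7 genes (crosses, in their own class). The null lines rise from between -0.06 and 0.24 for the shortest genes to between 1.50 and 2.02 for the longest, and Braf, the only member of 8000 bases or more, lies at 2.33.

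Araf encodes the other RAF kinase described here, which has weaker kinase activity than BRAF. Its FPKM was 14.73 and 11.72 in the wt pair and 22.42, 16.76 and 25.76 in null replicates 1, 2 and 3. The groups did not overlap in FPKM, but after TMM scaling null replicate 2 was the lowest library, with 29.7 CPM against 40.7 and 36.9 CPM in the wt pair. Araf had a log2 fold change of 0.06 (SE 0.45, edgeR adjusted p = 0.945). The shorter of its 2 listed transcripts, of 1571 bases, took 12.8% and 14.5% of Araf FPKM in the wt pair. It took 9.9% in null replicate 1 and 30.3% and 42.4% in null replicates 2 and 3. These shares rest on how the counting program divided reads between overlapping transcripts.

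Within a library, Araf FPKM was 56.7 and 78.1 times that of Braf in the wt pair and 49.8, 19.5 and 7.45 times in null replicates 1, 2 and 3. All null ratios were below both wt ratios, with null replicate 1 close to the wt libraries. The mean log2 ratio was 6.06 ± 0.33 (SD, n = 2) in the wt pair and 4.27 ± 1.37 (SD, n = 3) in the null libraries (two-sided exact permutation test, p = 0.2, adjusted over 3 ratios p = 0.6). The smallest p that 2 libraries against 3 allow is 0.1, so this test cannot reach 0.05. The scaling of libraries cancels in this ratio, but the difference in length between the transcripts does not.

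Hras and Nras encode RAS GTPases, which switch the cascade on when bound to GTP. Hras FPKM was 25.74 and 29.91 in the wt pair and 73.01, 40.52 and 26.74 in null replicates 1, 2 and 3. Null replicate 1 was far above the others and null replicate 3 lay between the wt libraries, so the groups overlapped in FPKM. After TMM scaling null replicate 2 lay between the wt libraries (72.4 against 67.3 and 88.5 CPM) and null replicate 3 below them (48.2 CPM). The log2 fold change of Hras was 0.19 (SE 0.57, edgeR adjusted p = 0.877), and it was -0.40 without null replicate 1. Hras was listed as 3 transcripts. Of these, the transcript of 2190 bases took 30.0% and 38.0% of Hras FPKM in the wt pair and 37.8%, 70.5% and 41.4% in the null libraries, so that null replicate 2 stood apart.

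Nras FPKM was 16.07 and 13.63 in the wt pair and 24.29, 29.24 and 17.56 in null replicates 1, 2 and 3. In FPKM the groups did not overlap, the null lines being higher, but after TMM scaling null replicate 3 was the lowest, with 65.6 CPM against 87.0 and 84.6 CPM in the wt pair. For Nras the log2 fold change was 0.10 (SE 0.43, edgeR adjusted p = 0.917), and it was -0.55 with the length offset. The ratio of Hras to Nras FPKM was 1.6 and 2.19 in the wt pair and 3.01, 1.39 and 1.52 in the null libraries. The null ratios lay on both sides of the wt ratios (log2 difference -0.02, two-sided exact permutation test, p = 1, adjusted over 3 ratios p = 1).

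Map2k1 and Map2k2 encode MEK1 and MEK2, the kinases that phosphorylate ERK. Map2k1 FPKM was 32.33 and 28.47 in the wt pair and 18.81, 43.85 and 64.36 in null replicates 1, 2 and 3. Null replicate 1 was below both wt libraries and the other null libraries were above them, although after TMM scaling null replicate 2 was also below them (86.3 against 92.8 and 93.7 CPM). The log2 fold change of Map2k1 was -0.13 (SE 0.55, edgeR adjusted p = 0.912). Map2k2 went the other way among the null lines in FPKM, with FPKM values of 96.52 and 78.96 in the wt pair and of 135.72, 76.63 and 65.35 in the null lines. Null replicate 1 was above both wt libraries and null replicates 2 and 3 were below them. Map2k2 had a log2 fold change of -0.47 (SE 0.50, edgeR adjusted p = 0.623), and -0.97 without null replicate 1.

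The composition of the MEK pair varied widely between null lines. Map2k1 FPKM was 0.335 and 0.361 times that of Map2k2 in the wt libraries, and 0.139, 0.572 and 0.985 times in null replicates 1, 2 and 3. Across the null lines this ratio spanned 7.11-fold, beside 6.69-fold for Araf to Braf and 2.17-fold for Hras to Nras, while the wt libraries, a single line, were close to each other. As single genes, Map2k1 spanned 3.42-fold and Map2k2 2.08-fold in FPKM across the null lines, where the median over all genes tested was 2.89. Ratios of other gene pairs were not measured, so the span is not shown to be particular to the MEK pair. Both transcripts are listed with 2387 bases, so neither the scaling nor the length of the transcripts enters the ratio. The mean log2 ratio was -1.52 ± 0.08 (SD, n = 2) in the wt pair and -1.23 ± 1.46 (SD, n = 3) in the null libraries, and the groups overlapped (two-sided exact permutation test, p = 0.8, adjusted over 3 ratios p = 1). The log2 difference of 0.30 was -0.30 without null replicate 3 and 1.11 without null replicate 1. The summed FPKM of the MEK pair varied less, with 129 and 107 in the wt pair and 155, 120 and 130 in the null libraries. The keratin-rich null replicate 1 had the lowest ratio and null replicate 3 the highest, and the part of the cell type in this order was not tested.

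**Figure D3:**
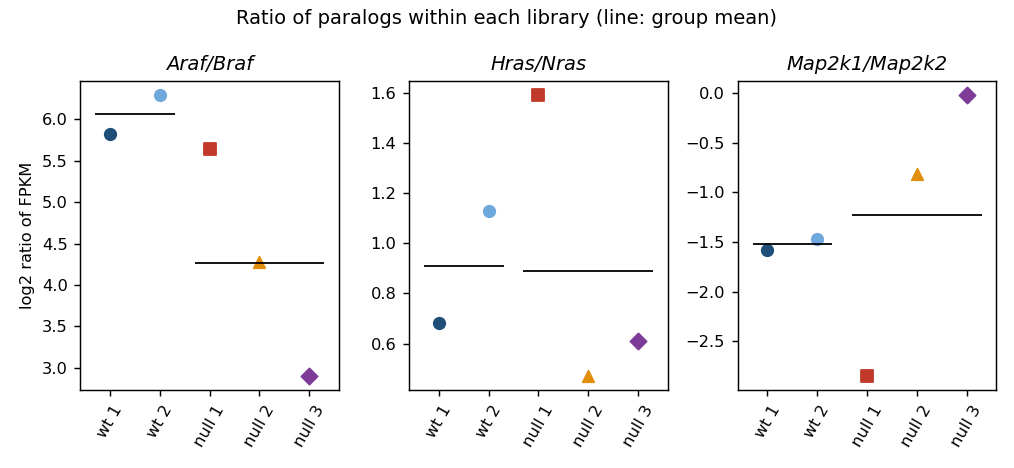
Log2 ratio of FPKM within each library for Araf/Braf, Hras/Nras and Map2k1/Map2k2, with the mean of each group as a line (2 wt and 3 null libraries). The wt libraries lie close together for Map2k1/Map2k2, at -1.58 and -1.47, while the null libraries lie at -2.85, -0.81 and -0.02.

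Mapk3 encodes ERK1. Its FPKM was 231.52 and 290.19 in the wt pair and 479.88, 217.21 and 214.46 in null replicates 1, 2 and 3. Null replicate 1 was above both wt libraries and null replicates 2 and 3 were below both. Mapk3 had a log2 fold change of -0.34 (SE 0.55, edgeR adjusted p = 0.758), and -0.96 without null replicate 1. Hras, Map2k2 and Mapk3 thus shared null replicate 1 as their highest library, in which Map2k1 had its lowest value. Braf and Map2k1 had their highest value in null replicate 3, and Nras in null replicate 2. Araf was highest in null replicate 3 in FPKM, but in null replicate 1 after TMM scaling (48.3 against 43.7 CPM).

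**Figure D4:**
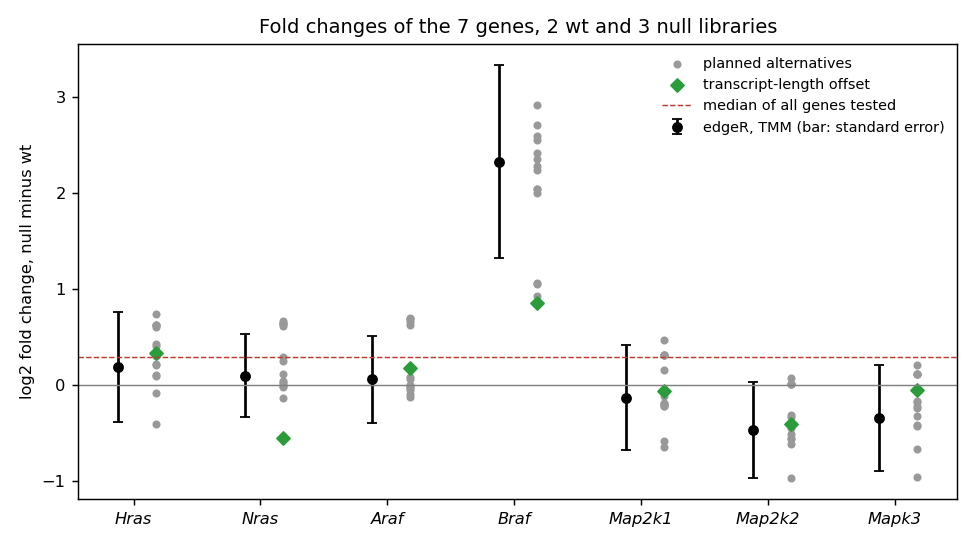
Log2 fold change of the 7 genes, null minus wt (black points, bars are standard errors, 2 wt and 3 null libraries), with the values under the other fits in grey and with the transcript-length offset in green. Braf lies at 2.33 and at 0.86 with the offset, and the other 6 genes lie between -0.47 and 0.19, and none passes the test.

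Between the wt libraries, which differ by label in TSH, there was no replicate. Tshr, the gene of the TSH receptor, had an FPKM of 0.10 and 0.02 in wt replicates 1 and 2. Relative to wt replicate 1, wt replicate 2 (with TSH) had a log2 ratio of TMM-scaled CPM of -0.58 for Braf, -0.14 for Araf, 0.39 for Hras, -0.04 for Nras, 0.01 for Map2k1, -0.09 for Map2k2 and 0.52 for Mapk3. The median size of this log2 ratio was 0.40 over 11702 genes with at least 10 counts in both libraries. Braf and Mapk3 were above that median and the other 5 members were below it. The Braf values rest on 80 and 47 counts, whose intervals touch at 63.

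The genes with the most similar profile to each member over the 5 libraries were found on log2(FPKM + 0.1), each gene centred on its own mean, among those with a mean FPKM of at least 5. For Braf these were Yipf4, Hif1a and Yaf2, with root mean square differences of 0.12, 0.16 and 0.18. Braf FPKM was as low as 0.15, so the added 0.1 narrows its profile, and its nearest genes may depend on that choice. Hif1a, the hypoxia-responsive transcription factor, had FPKM levels of 5.67 and 2.87 in the wt pair and of 7.48, 11.44 and 49.51 in the null lines. Nearest to Map2k1 were Stt3a, a subunit of the oligosaccharyltransferase, Ube2e2 and Klhl12 (0.07, 0.08 and 0.08). Stt3a had FPKM levels of 88.19 and 83.62 in the wt pair and of 48.51, 112.26 and 178.51 in the null lines. Nearest to Map2k2 were Dus1l, Noc4l and 2310022A10Rik, each at 0.06. Nearest to Mapk3 were Vps18, Retreg2 and Aprt (0.04, 0.06 and 0.07), and nearest to Hras were Atp13a2, Rexo1 and 2310033P09Rik (0.04, 0.06 and 0.07). Sptlc1, Tatdn2 and Dgcr2 were nearest to Nras (0.04, 0.04 and 0.06), and Btg1, Ganab and Zmynd19 to Araf (0.05, 0.06 and 0.08). With 5 libraries such likeness is a description only.

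The other genes of the cascade were taken from 8 lists. Of 149 genes, 138 were tested, and 0 passed an adjusted p of 0.05 in either direction (edgeR). Of the 138, 22 (15.9%) had an unadjusted p under 0.05 with a higher level in the null lines and 4 (2.9%) with a lower level, against 12.4% and 6.07% of all genes tested. The median log2 fold change of the 138 genes was 0.44, beside 0.29 for all genes. DESeq2 called 16 of the 138, against 12.1% of all genes by that tool. The genes named below were among these 16, except Rap2b, Rap2c, Cdc37, Rps6ka4, Map3k3 and Spred2. The lowest DESeq2 adjusted p on the higher side was 3.62e-07 for Map3k2 and 8.2e-07 for Map2k4. Rasgrf1 and Rerg, both lower in the null lines, passed the filter on low counts only through the wt libraries. No conclusion is drawn from their p values. The lists differed in transcript length, with medians from 2164 bases for RAS lipid processing to 5699 bases for the RAS GAPs, where the median over all genes was 2790 bases. With the length offset the list medians lay between 0.02 for the ERK substrates and 0.49 for ERK output and feedback, beside 0.13 for all genes. For each list below, the shares of all genes to set beside its counts are 12.4% higher and 6.07% lower, or 7.29% and 5.66% with the offset.

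Among the RAS activators, which couple receptors to RAS, 6 of 17 genes tested had an unadjusted p under 0.05 on the higher side and 1 on the lower side, and with the length offset 1 higher and 1 lower. Their median log2 fold change was 1.06 at a median length of 5612 bases, and 0.03 with the length offset. Sos1, the exchange factor that loads RAS with GTP, had FPKM levels of 0.18 and 0.16 in the wt pair and of 2.41, 1.68 and 4.13 in the null lines (log2 fold change 3.41, edgeR adjusted p = 0.180). With the offset its log2 fold change was 1.98. Frs2, an adaptor of FGF receptors, had 1.79 and 1.42 against 4.50, 11.22 and 9.13, and a log2 fold change of 1.77 (adjusted p = 0.202), which was 0.82 with the offset. Irs1, an adaptor of the insulin receptor, had 0.18 and 0.15 against 1.69, 1.65 and 1.23, and a log2 fold change of 2.66 (adjusted p = 0.186), which was 1.13 with the offset. On the lower side, Rasgrf1, an exchange factor driven by calcium, had FPKM levels of 3.72 and 8.87 in the wt pair and of 0.02 and 0.07 in null replicates 1 and 3, and was not listed in null replicate 2. Its fitted log2 fold change was -7.94 (adjusted p = 0.180), and -7.94 with the offset. Rasgrf1 passed the filter on low counts only through the wt libraries, and with null counts near 0 the size of this change is not exact.

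The RAS GAPs, which switch RAS off by promoting GTP hydrolysis, had 4 of 7 genes tested with an unadjusted p under 0.05 on the higher side and 0 on the lower side, and with the length offset 1 higher and 0 lower. Their median log2 fold change of 1.95, at a median length of 5699 bases, was 0.18 with the length offset. Nf1, the gene of neurofibromin, had FPKM levels of 0.29 and 0.24 in the wt pair and of 1.39, 2.27 and 1.34 in the null lines (log2 fold change 2.06, edgeR adjusted p = 0.192). At 11847 bases it was the longest of those named, and with the offset its log2 fold change was 0.18. Rasa1 had 0.68 and 0.28 against 2.61, 10.71 and 2.34, with null replicate 2 the highest, and a log2 fold change of 2.86 (adjusted p = 0.207), which was 2.00 with the offset. Dab2ip had 1.68 and 1.13 against 12.69, 7.36 and 6.17, and a log2 fold change of 2.07 (adjusted p = 0.192), which was 1.06 with the offset.

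Among other RAS-like GTPases, 2 of 15 tested had an unadjusted p under 0.05 on the higher side and 1 on the lower side, and with the length offset 0 higher and 1 lower. Their median log2 fold change was 0.26. Rap2b and Rap2c, small GTPases close to RAP1, had log2 fold changes of 1.24 and 1.40 (edgeR adjusted p = 0.231 and 0.262). With the offset these were 0.68 and 1.03, and neither had an unadjusted p under 0.05. Rap2b FPKM was 5.95 and 3.86 in the wt pair against 13.02, 21.75 and 17.30 in the null lines. Rerg, the gene on the lower side and a growth-inhibiting GTPase, had FPKM levels of 6.85 and 1.46 in the wt pair. It had 0.11 in null replicate 3 and was not listed in null replicates 1 and 2. Its fitted log2 fold change was -7.32 (adjusted p = 0.181). Rerg passed the filter on low counts only through the wt libraries, and with null counts near 0 the size of this change is not exact. The genes of RAS lipid processing had a median of 0.14, with 0 of 10 genes higher and 1 lower at an unadjusted p under 0.05. That gene, Fntb, encodes the β subunit of farnesyltransferase, which anchors RAS in membranes. Its FPKM was 24.63 and 24.65 in the wt pair and 14.14, 17.77 and 9.86 in the null libraries (log2 fold change -1.41, adjusted p = 0.204), and it was -1.40 with the offset.

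Of the scaffolds, chaperones and RAF regulators, 5 of 28 tested were higher and 1 lower at an unadjusted p under 0.05 (3 higher and 1 lower with the length offset), and their median log2 fold change was 0.14. Shoc2, part of the phosphatase complex that activates RAF, had FPKM levels of 1.47 and 1.39 in the wt pair and 11.08, 8.29 and 12.33 across the null lines. The log2 fold change was 2.30 (edgeR adjusted p = 0.180), and 1.78 with the length offset. Pak2, a kinase that acts on RAF and MEK, had 3.89 and 3.15 against 22.39, 22.33 and 17.04, and a log2 fold change of 1.98 (adjusted p = 0.180) and 1.44 with the offset. Erbin, which binds ERBB2, had 0.32 and 0.39 against 3.09, 6.65 and 2.72, a log2 fold change of 2.95 (adjusted p = 0.180) and 1.80 with the offset. Cdc37, the kinase co-chaperone of HSP90 for RAF, was the gene on the lower side, with 302.36 and 350.14 in the wt pair and 272.16, 209.08 and 146.51 in the null libraries (log2 fold change -1.22, adjusted p = 0.236).

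In the other MAPK modules, which lead to JNK, p38 and ERK5, 4 of 23 genes tested were higher and 0 lower at an unadjusted p under 0.05 (3 and 0 with the length offset), with a median log2 fold change of 0.52. Map2k4, a kinase upstream of JNK, had FPKM levels of 1.25 and 0.77 in the wt pair and of 10.34, 12.46 and 10.71 in the null lines. The 3 null lines lay close together, and the log2 fold change was 2.90 (edgeR adjusted p = 0.180) and 2.50 with the length offset. Map3k2 and Map3k3, upstream of ERK5, had log2 fold changes of 3.09 and 1.46 (adjusted p = 0.180 and 0.223), which were 1.39 and 1.22 with the offset. Of 16 ERK substrates, 0 had an unadjusted p under 0.05 in either direction, and their median was 0.45. The most abundant as a mean over the 5 libraries, though not in every library, was Rps6ka4. It had FPKM levels of 32.06 and 30.01 in the wt pair and of 102.14, 45.42 and 33.28 in the null lines, with overlap after TMM scaling. Among the 22 ERK output and feedback genes, 1 was higher and 0 lower at that threshold, with a median of 0.33. That gene, Spred2, encodes an inhibitor of RAS activation and had 3.02 and 1.80 in the wt pair and 10.39, 20.08 and 6.08 in the null libraries (log2 fold change 1.77, adjusted p = 0.237).

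**Figure D5:**
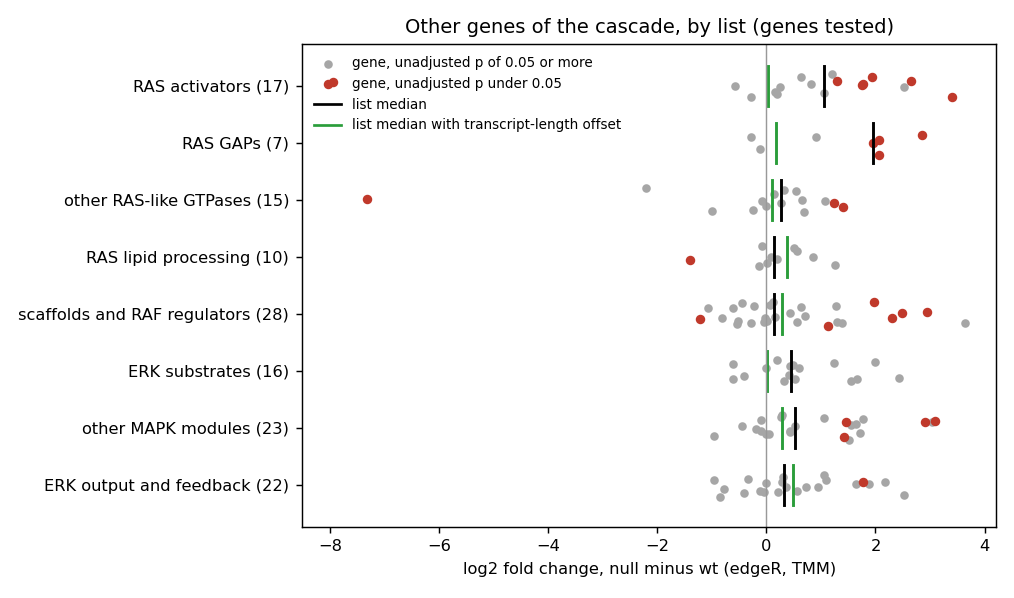
Log2 fold change, null minus wt, of each gene tested in the 8 lists (points, red where the unadjusted p is under 0.05), with the list median (black) and the median with the transcript-length offset (green). The medians of the RAS activators and the RAS GAPs move from 1.06 to 0.03 and from 1.95 to 0.18 with the offset.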

How the data were processed

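RNA from 5 mouse thyroid tumor cell line libraries was sequenced (TruSeq libraries, HiSeq 4000). The authors deposited, per RefSeq transcript, expected counts (estimated, not always whole) and FPKM values, listed from an FPKM of 0.01 upward. The aligner, counting program and genome build were not given in the sources used here, so no coordinates of the measured transcripts are printed. Samples were grouped by their titles. Estimated counts were summed per NCBI gene number and rounded, and FPKM was summed likewise. Of 17923 genes, 17866 matched a symbol in the RefSeq table. The transcript length of a gene is its count-weighted mean.

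Null and wt libraries were compared over 13240 genes by glmQLFit and glmQLFTest after TMM scaling and filterByExpr by group (edgeR 4.0.16, R 4.3.3), and by an exact permutation test for ratios of paralogs. Alternatives were DESeq2 1.42.0, library totals, no filter, a minimum of 10 counts in all libraries, limma-trend 3.58.1 on log2 of FPKM with 0.1, 0.01 or 1 added (FPKM 0.5 or more in 2 libraries, or no filter), leaving out each library, and the replicate number as a block. An edgeR fit with a lowess offset for transcript length (span 0.3) was added after the data were seen. Simulated data served to test limma, DESeq2 and edgeR with and without this offset. Data with a length trend were simulated only with less spread between libraries than these data have. The offset was therefore not tested at their spread. Named genes were the 7 members, Ctnnb1, the 3 genes nearest to each member in profile, and per list up to 3 genes per direction with the lowest unadjusted p under 0.05 and no overlap between groups after TMM scaling, or else the most abundant gene. The members, lists and motifs were chosen with earlier results of these data or with the sequences known.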

Additional observations from a re-analysis of the deposited data

How the results depend on the processing

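Of the 15 alternatives, DESeq2 called 0 of the 7 members at an adjusted p of 0.05, against 12.1% of all genes. The other alternatives that kept both wt libraries also called 0 members. Over all genes they called at most 1 higher and 7 lower, so they could hardly have called a member. Braf kept its direction in every alternative, with a log2 fold change from 0.86 with the length offset and 0.93 with limma on log2(FPKM + 1) to 2.92 with library totals, and between 1.05 and 2.71 when a library was left out. The members with a fold change below 0 moved above it with the scaling. With library totals, Map2k1, Map2k2 and Mapk3 had 0.47, 0.07 and 0.21, and all 4 limma fits gave 0.31, 0.01 and 0.12. The median of all genes moved from 0.17 to 0.75 with library totals and to 0.60 with limma on log2(FPKM + 0.1), and the values lay below these medians. Araf was -0.02 with DESeq2 and -0.00 without a filter on low counts. With library totals Araf, Hras and Nras had 0.63, 0.74 and 0.67, and limma on log2(FPKM + 0.1) gave 0.69, 0.63 and 0.64. Nras was -0.55 with the length offset. When a library was left out, the log2 fold change lay between -0.12 and 0.16 for Araf, -0.40 and 0.43 for Hras, -0.13 and 0.25 for Nras and -0.58 and 0.16 for Map2k1. With 1 wt library left, that library is assumed to vary like the null libraries. The log2 difference of the ratios then lay between -2.47 and -1.09 for Araf/Braf, -0.37 and 0.21 for Hras/Nras and -0.30 and 1.11 for Map2k1/Map2k2, which was -0.30 without null replicate 3.

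Over all genes, DESeq2 called 1113 higher and 487 lower and 16 list genes. The limma fits with the filter called 1 higher and 5, 3 and 7 lower with 0.1, 0.01 and 1 added. No filter on low counts gave 4 lower and at least 10 counts in every library gave 1 lower. The cause of these differences was not tested. With the replicate number as a block, the fit called 0 genes, Araf had -0.03 and Braf 1.06. Number 3 occurs only in the null group, so null replicate 3 adds nothing to the fold changes of this fit. Without null replicate 3 and with no block, Braf had 1.05. The labels do not say that numbers pair samples, and deviations of same-numbered libraries correlated at -0.11 for numbers 1 and 2. Braf rests on 47 and 80 counts in the wt libraries.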
